A study of Mus musculus with 9 samples.

Results

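The 10 transcriptional regulators of fat cell fate described here were followed through beige differentiation of cultured mouse preadipocytes: Ebf1, Ebf2, Ebf3, Prdm16, Ehmt1, Zfp423, Zfp516, Irf4, Tbx1 and Tbx15. They were taken by gene symbol from a table of 55359 genes of ribosome footprints, the mRNA fragments of about the length that a ribosome shields from RNase. All 10 symbols matched 1 gene each, and all 10 were among the 14714 genes that passed the filter on low counts. Irf4 passed through its counts at days 4 and 8 only. The cells were precursors from inguinal white adipose tissue (iWAT), the subcutaneous depot in which beige fat cells arise. Non-induced cells formed the day 0 group, and induced cells were taken at day 4 and at day 8. Each group had 3 libraries, 9 in total. The induction medium held insulin, rosiglitazone, indomethacin, dexamethasone, 3-isobutyl-1-methylxanthine and 3,3′,5-triiodo-L-thyronine. After 2 days the cells were moved to medium that lacked dexamethasone, indomethacin and 3-isobutyl-1-methylxanthine. Strain, sex, age and the number of animals are not stated in the labels, nor whether replicates came from separate cultures. The p-values therefore reflect no more than how far these libraries vary, which may be technical.

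EBF proteins are DNA-binding factors that act early in fat cell commitment, and EBF2 is known for opening thermogenic enhancers with PPARγ. PRDM16 is a zinc finger coregulator that drives brown and beige gene programmes and holds the histone methyltransferase EHMT1 in its complex. ZFP423 is known as a commitment factor that also restrains thermogenesis in white fat cells, in part by binding EBF2, whereas ZFP516 and IRF4 are known as activators of Ucp1 and Ppargc1a in the cold. TBX1 marks beige cells and TBX15 is a T-box factor of subcutaneous fat. A footprint count depends both on how much mRNA there was and on how many ribosomes it carried, and matched RNA was not analysed here. In these bulk cultures fewer cells of a type and less RNA per cell cannot be told apart.

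Libraries held 30823028 to 38994892 counts. Within day 4, replicate 2 stood apart on the first principal component of log2 CPM (12.8 against 64.8 and 65.4, with day 0 between -127 and -124), and within day 8 replicate 3 did so less far (62.1 against 85.5 and 85.8). The 8 precursor markers chosen summed to 2404 to 2552 CPM at day 0, to 804.5 to 1825 CPM at day 4 and to 527.2 to 721.7 CPM at day 8. Pdgfrb (1587 CPM on average at day 0) and Pdgfra (670.9 CPM) made up most of that sum. At day 4, 3 of the 8 rose (Cd34, Ly6a and Dlk1) and 2 fell (Pdgfrb and Dpp4), with a median log2 fold change of 0.0070, and at day 8, 4 fell and 0 rose in edgeR's test (median -1.19). With day 4 replicate 2 and day 8 replicate 3 left out together, 2 rose and 4 fell at day 4, and 0 rose and 6 fell at day 8. The 8 fat cell markers summed to 258.8 to 323.3, 33440 to 52500 and 50230 to 54100 CPM on those days. All 7 of the fat cell markers that could be tested rose by both days, and Lep, the leptin gene, had too few counts for a test. Both libraries that stood apart were kept.

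By day 4, 6 of the 10 regulators changed against day 0, with 5 higher and 1 lower, and 9 had changed by day 8, with 6 higher and 3 lower. Irf4, which passed the filter through the later days only, is among those higher on both days. Levels are given as normalised read counts (CPM). Raw counts, with scaled library sizes, were compared with edgeR's quasi-likelihood test. Calls required an adjusted p under 0.05 (Benjamini-Hochberg, over all tested genes). In the same tests 58.2% of all genes were called at day 4 (29.8% higher and 28.4% lower) and 67.7% at day 8 (34.2% higher and 33.5% lower). Against that background, 6 of 10 at day 4 is close to the share of all genes. Between days 4 and 8 there were 4 calls among the 10, 1 higher and 3 lower, where 31.8% of all genes were called (14.7% higher and 17.1% lower). When both libraries that stood apart (day 4 replicate 2 and day 8 replicate 3) were left out, the regulators called numbered 9, 9 and 5 in these 3 comparisons. All genes called also rose in that fit, from 8563, 9961 and 4676 to 10001, 10638 and 5481. The median log2 fold change of the 10 was 0.62 at day 4 and 0.81 at day 8, beside -0.018 and -0.0057 over all tested genes. When libraries were scaled by their totals in place of TMM (edgeR's trimmed mean scaling), the median over all genes became -0.17 for day 4 against day 0 and 0.12 for day 8 against day 4. The share of called genes that were higher then moved from 51.2% to 41.9% and from 46.2% to 65.9%. Scaling by the upper quartile gave a median of -0.14 and a share of 43.2% for day 4 against day 0, and a median of -0.11 for day 8 against day 0.

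**Figure D1:**
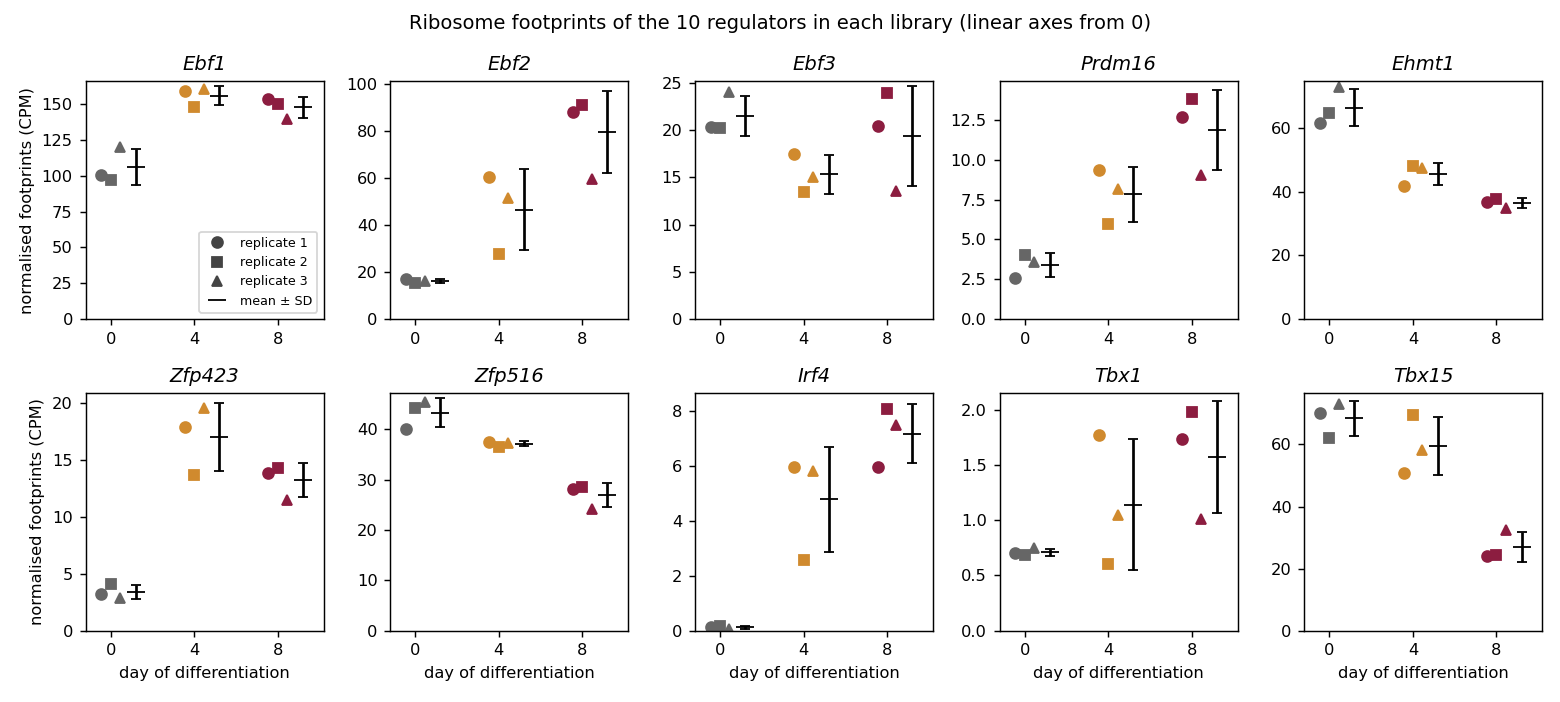
Normalised footprints (CPM, linear axes from 0) of the 10 regulators against the day of differentiation. Each symbol is 1 library (circle, square and triangle for replicates 1, 2 and 3), and bars give the mean ± SD of 3 libraries. Ebf2 and Prdm16 are lowest at day 0 and Tbx15 is lowest at day 8, while Irf4 reaches at most 0.186 CPM at day 0.

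The 3 EBF genes of the set behaved differently from one another. Ebf2 (ENSMUSG00000022053) had 17.0, 15.6 and 16.3 CPM at day 0, 60.7, 27.6 and 51.8 CPM at day 4 and 88.4, 91.5 and 59.7 CPM at day 8 in replicates 1, 2 and 3. Every library of days 4 and 8 lay above all day 0 libraries, with the lowest day 4 value in replicate 2 and the lowest day 8 value in replicate 3. Ebf2 rose 2.87-fold by day 4 (log2 fold change 1.52 ± 0.27 SE, adjusted p = 0.000828) and 4.90-fold by day 8 (2.29 ± 0.27, adjusted p = 5.18e-05). The step from day 4 to day 8 was 0.77 ± 0.26 (adjusted p = 0.0455), and the 2 groups overlapped. That call was lost in 6 of the 9 fits that left out 1 library, namely any day 0 library, day 4 replicate 3 and day 8 replicate 1 or 2 (0.66 to 0.85, adjusted p = 0.0667 to 0.143). Without day 4 replicate 1 that step was 1.01 and without replicate 2 it was 0.50, both called.

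Ebf1 (ENSMUSG00000057098), the founding member of the family, rose by a smaller factor and reached its higher level by day 4. Its level was 105.9 ± 12.3 CPM at day 0, 155.8 ± 6.70 CPM at day 4 and 147.6 ± 7.10 CPM at day 8 (SD, n = 3). No day 0 library reached the libraries of the later days. The log2 fold change against day 0 was 0.56 ± 0.11 at day 4 (adjusted p = 0.00148) and 0.48 ± 0.11 at day 8 (adjusted p = 0.00275). Between days 4 and 8 it was -0.078 ± 0.11 (adjusted p = 0.611), with overlapping groups.

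Ebf3 (ENSMUSG00000010476) did not follow the other two. Its levels were 20.3, 20.2 and 24.0 CPM at day 0, 17.5, 13.5 and 15.0 CPM at day 4 and 20.5, 24.0 and 13.6 CPM at day 8. All 3 day 4 libraries lay below all day 0 libraries, but the difference just missed the threshold (-0.49 ± 0.20, adjusted p = 0.0550). It was called under 8 of 19 alternatives, among them the fits without day 4 replicate 1 (-0.59, adjusted p = 0.0494), without day 8 replicate 2 (-0.47, adjusted p = 0.0459) and without day 8 replicate 3 (-0.47, adjusted p = 0.0146). The range of its adjusted p across these alternatives was 0.0146 to 0.167. At day 8 it spanned the day 0 range (-0.15 ± 0.20, adjusted p = 0.506, and 0.061 without day 8 replicate 3). Without that library its difference between days 8 and 4 was called (0.53, adjusted p = 0.0272, against 0.34 and 0.219 with all libraries).

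Ebf2 held a larger share of the Ebf1, Ebf2 and Ebf3 footprints on the later days. This ratio of counts within each library depends on no scaling and was given no test. Since longer coding sequences collect more footprints, only the change of a share is read here, not its size. Of the summed Ebf1, Ebf2 and Ebf3 counts, Ebf2 held 11.4% ± 1.13 at day 0, 21.0% ± 5.72 at day 4 and 32.1% ± 3.51 at day 8 (SD, n = 3). Ebf3 held 15.0% ± 0.22 at day 0 and 7.04% ± 0.386 at day 4, and the libraries of these days did not overlap. At day 8 Ebf3 held 7.74% ± 1.33. The share of Ebf1 was 73.6% ± 1.09, 72.0% ± 5.76 and 60.2% ± 4.78, and within day 4 it ran from 67.0% in replicate 1 to 78.3% in replicate 2. The share of Ebf2 in that replicate was 14.6%, beside 25.6% and 22.8% in the other day 4 libraries. How reads that fit more than 1 EBF gene were counted is not given in the sources used here.

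**Figure D2:**
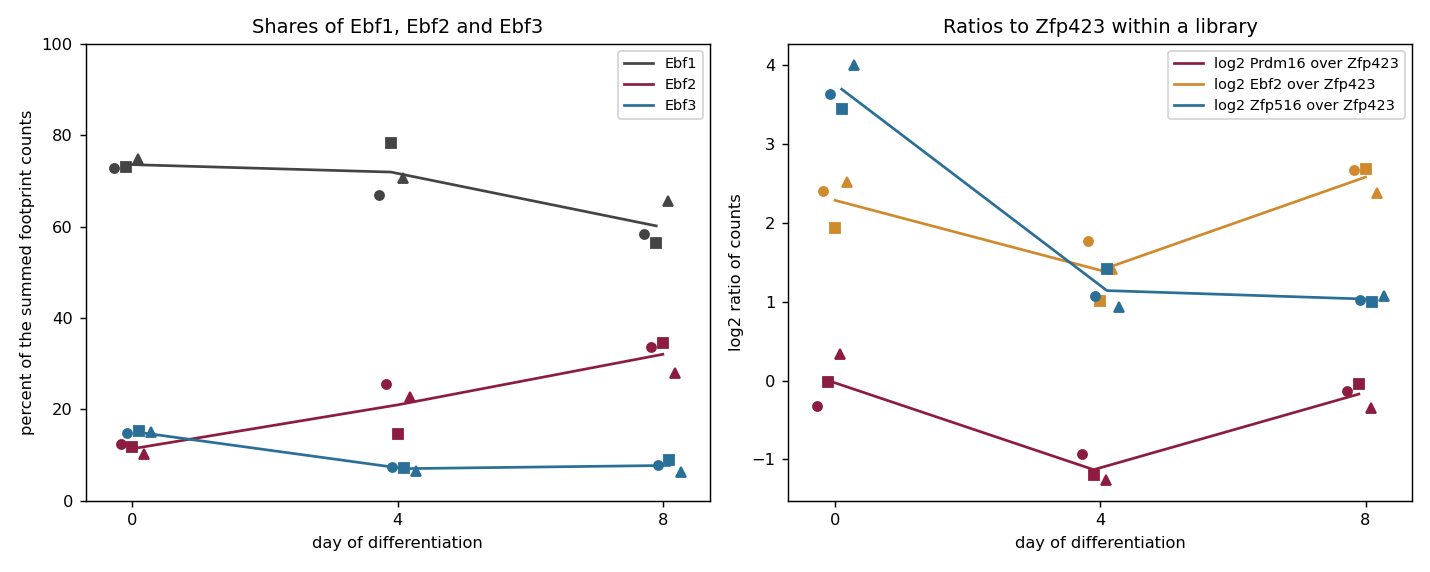
Left, percent of the summed Ebf1, Ebf2 and Ebf3 counts held by each gene, and right, log2 ratios of raw counts to Zfp423, both against the day of differentiation. Symbols are libraries (circle, square and triangle for replicates 1, 2 and 3) and lines join the means of 3 libraries. The mean Ebf2 share is 11.4% at day 0 and 32.1% at day 8, and the mean log2 ratio of Prdm16 to Zfp423 is lowest at day 4, at -1.13.

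Genes known to work with EBF factors moved in both directions. Of 9 genes listed, among them Ebf4 of the EBF family itself, 2 rose and 5 fell by day 8 (77.8% called, median log2 fold change -0.73). By day 4, 2 rose and 3 fell (55.6% called). The shares over all tested genes were 67.7% at day 8 and 58.2% at day 4. Ebf4 had 0.707 ± 0.247 CPM at day 0, 0.0955 ± 0.0741 CPM at day 4 and 0.388 ± 0.198 CPM at day 8. It was among the 3 that fell by day 4, and it passed the filter only with its day 0 counts. Zfp521, a zinc finger antagonist of EBF1, fell from 63.5 ± 8.83 to 18.8 ± 7.22 and then to 6.31 ± 2.35 CPM, a log2 fold change of -3.33 ± 0.32 at day 8 (adjusted p = 1.42e-05). Dpf3, a chromatin reader that links EBF2 to the BAF remodelling complex, had 1, 3 and 2 counts at day 0 and 72, 89 and 65 at day 8, and passed the filter through the later days only. Smarca4, the ATPase of that complex, fell by day 8 (-0.96 ± 0.11, adjusted p = 4.37e-05) with a day 4 value of -0.031 ± 0.11. Zbtb7b, a zinc finger regulator of brown and beige genes, rose by 1.33 ± 0.17 at day 8 (adjusted p = 7.76e-05). Mural cells of vessels also carry EBF1, and their 5 markers summed to 50.5 to 59.1 CPM at day 0, 64.4 to 83.8 CPM at day 4 and 109.9 to 121.5 CPM at day 8. The median log2 fold change of the 5 was nevertheless -0.88 at day 4 and -0.97 at day 8. Among them Cspg4 and Notch3 were higher at day 8, Kcnj8 was lower, and Rgs5 stood at 0.387 ± 0.0929 and 0.176 ± 0.187 CPM. Their part in the EBF levels was not tested.

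Prdm16 (ENSMUSG00000039410) rose at both days from a low level. It had 2.59, 4.02 and 3.59 CPM at day 0, 9.36, 5.97 and 8.15 CPM at day 4 and 12.7, 13.8 and 9.07 CPM at day 8. No library of the later days reached down to day 0, and the lowest values of those days were again day 4 replicate 2 and day 8 replicate 3. The rise was 2.30-fold by day 4 (1.20 ± 0.24, adjusted p = 0.00185) and 3.49-fold by day 8 (1.80 ± 0.24, adjusted p = 0.000112). From day 4 to day 8 the log2 fold change was 0.60 ± 0.23 (adjusted p = 0.0725). That step was called without day 8 replicate 3 (0.76, adjusted p = 0.0361), with libraries scaled by totals (0.75, adjusted p = 0.0312) and by DESeq2 (0.61, adjusted p = 0.0477), and its adjusted p ran from 0.0285 to 0.228 over the alternatives.

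The opposite-strand gene Prdm16os (ENSMUSG00000085069), a long noncoding RNA that starts beside Prdm16 and runs away from it, had counts on the later days too. Whether these reads came from ribosomes on that RNA was not tested. It had 0 counts in all 3 day 0 libraries, 15, 9 and 11 at day 4, and 27, 22 and 14 at day 8. Against a floor of 3 counts per library it was at least 3.72-fold higher at day 4 and at least 6.49-fold higher at day 8. It passed the filter through those days only, so its test is not given as support. The start sites of the 2 genes lie 707 bases apart in the reference used here, an earlier assembly (GRCm38.p6, RefSeq) than that of the counts. Their start regions, 250 bases before to 50 after each start, are shown because both genes moved together, in the direction of each gene, 5′ to 3′. Capitals mark the match to CCCNNGGG, the core of the EBF site.
Prdm16, chr4:154636824-154637123, - strand: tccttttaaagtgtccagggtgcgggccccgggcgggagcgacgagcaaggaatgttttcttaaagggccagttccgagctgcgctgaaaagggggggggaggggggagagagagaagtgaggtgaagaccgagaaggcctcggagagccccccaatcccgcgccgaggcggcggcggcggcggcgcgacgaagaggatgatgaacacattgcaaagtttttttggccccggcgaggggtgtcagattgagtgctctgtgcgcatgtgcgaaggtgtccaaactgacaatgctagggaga
Prdm16os, chr4:154637330-154637629, + strand: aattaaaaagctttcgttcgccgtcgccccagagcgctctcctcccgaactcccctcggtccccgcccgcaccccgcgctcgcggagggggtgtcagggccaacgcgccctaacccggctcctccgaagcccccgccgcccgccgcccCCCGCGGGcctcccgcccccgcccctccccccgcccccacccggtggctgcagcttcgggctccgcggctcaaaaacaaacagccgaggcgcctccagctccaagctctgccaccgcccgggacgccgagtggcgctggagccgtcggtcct

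The Prdm16os region held 1 match to CCCNNGGG, 102 bases before the start, and the Prdm16 region held none. That palindrome, the same on both strands, was found in 13.7% of 32851 such regions of the mouse genome. Start regions were listed for 7 of the 10 regulators. Among those, Ebf3 (21 bases before the start) and 1 of 2 regions of Zfp423 also held a match. The T-box core AGGTGTGA, searched on both strands and present in 1.28% of all regions, was in none of the regions of the 7 genes. A match describes letters in the window and not binding.

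Ehmt1 (ENSMUSG00000036893), which methylates histone H3 in the PRDM16 complex, moved the opposite way to Prdm16. It fell from 66.4 ± 5.77 CPM at day 0 to 45.6 ± 3.46 at day 4 and 36.5 ± 1.54 at day 8, and no 2 groups overlapped. The log2 fold change was -0.54 ± 0.10 at day 4 (adjusted p = 0.00116) and -0.86 ± 0.10 at day 8 (adjusted p = 4.67e-05). The further fall from day 4 to day 8 (-0.32 ± 0.10, adjusted p = 0.0349) was lost in 6 of 9 fits that left out 1 library, with values of -0.35 to -0.29 and adjusted p = 0.0544 to 0.0961. The fits concerned left out day 0 replicate 2, day 4 replicate 2 or 3, or any day 8 library. With libraries scaled by their totals the step was -0.18 (adjusted p = 0.180). Ehmt2, which encodes the partner methyltransferase G9a, fell as well, from 120.2 ± 10.2 to 64.3 ± 1.01 CPM at day 8 (-0.90 ± 0.10, adjusted p = 4.49e-05). The log2 ratio of Ehmt1 to Ehmt2 counts was -0.86 ± 0.045 at day 0, -1.06 ± 0.075 at day 4 and -0.82 ± 0.066 at day 8 (SD, n = 3).

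Of 12 PRDM16 partners and turnover factors, 6 rose and 3 fell by day 4, and 7 rose and 2 fell by day 8 (75% called on both days, median log2 fold change 0.33 and 0.45). Over all tested genes 58.2% and 67.7% were called. Ppargc1a, a coactivator of mitochondrial genes, went from 0.356 ± 0.0400 to 35.9 ± 6.34 CPM at day 8 (6.64 ± 0.34, adjusted p = 4.76e-07). Pparg, the master receptor of fat cells, rose by 3.96 ± 0.29 (adjusted p = 2.82e-06). Cul2, the scaffold of the ubiquitin ligase that is known to degrade PRDM16, rose from 59.9 ± 1.93 to 150.4 ± 11.9 CPM (1.33 ± 0.11, adjusted p = 5.92e-06). Its substrate adaptor gene Appbp2 peaked at day 4 (140.9 ± 5.00 CPM) between 69.8 ± 0.671 CPM at day 0 and 94.4 ± 3.24 CPM at day 8, and all 3 differences were called. Ehmt2 and Kdm1a, a histone demethylase, were the 2 that fell by day 8. Mecom, the closest relative of Prdm16, fell at day 4 (-1.25 ± 0.29, adjusted p = 0.00439) and stood at -0.53 ± 0.28 at day 8 (adjusted p = 0.123). The corepressor genes Ctbp1 and Ctbp2 were not called in any comparison (adjusted p = 0.0703 to 0.818). Of 8 other PRDM genes tested, 2 rose and 3 fell by day 8 (62.5% called, beside 67.7% of all tested genes). Prdm9 was 3.89 ± 0.48 and Prdm15 0.84 ± 0.18 higher, and Prdm4 stood at -0.82 ± 0.17.

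Zfp423 (ENSMUSG00000045333) rose by day 4, and its step from day 4 to day 8 was not called. It had 3.23, 4.09 and 2.84 CPM at day 0, 17.9, 13.7 and 19.5 CPM at day 4 and 13.9, 14.3 and 11.5 CPM at day 8. Days 4 and 8 overlapped and both lay clear of day 0. The log2 fold change was 2.33 ± 0.19 at day 4 (adjusted p = 6.46e-06) and 1.97 ± 0.19 at day 8 (3.90-fold, adjusted p = 1.46e-05). From day 4 to day 8 it was -0.36 ± 0.18 (adjusted p = 0.141), a difference that was called without day 4 replicate 2 (-0.50, adjusted p = 0.0361) and had an adjusted p of 0.0361 to 0.365 over the alternatives.

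Set against Zfp423 within each library, Prdm16 and Ebf2 were lowest at day 4. The log2 ratio of Prdm16 to Zfp423 counts was -0.32, -0.022 and 0.34 at day 0, -0.93, -1.20 and -1.26 at day 4 and -0.13, -0.044 and -0.34 at day 8. All 3 day 4 libraries, replicate 2 included, lay below all others, and days 0 and 8 overlapped. The log2 ratio of Ebf2 to Zfp423 was 2.28 ± 0.308 at day 0, 1.40 ± 0.377 at day 4 and 2.58 ± 0.174 at day 8, and the highest day 4 library (1.77) lay below the lowest of the other days (1.93). These ratios depend on no scaling, and a difference between days does not depend on gene length. They were given no test.

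Zfp516 (ENSMUSG00000058881), a zinc finger activator of Ucp1, was lower by day 8. It had 39.96, 44.3 and 45.5 CPM at day 0, 37.5, 36.5 and 37.2 CPM at day 4 and 28.1, 28.4 and 24.2 CPM at day 8. The 3 groups did not overlap. The fall passed the test at day 8 against day 0 (-0.68 ± 0.10, adjusted p = 0.000167) and against day 4 (-0.46 ± 0.10, adjusted p = 0.00705). At day 4 against day 0 it did not (-0.22 ± 0.10, adjusted p = 0.0729). That difference was called when libraries were scaled by totals (-0.38, adjusted p = 0.00710) or by the upper quartile (-0.35, adjusted p = 0.0106), and its adjusted p ran from 0.00710 to 0.273 over the alternatives. Its log2 ratio to Zfp423 went from 3.69 ± 0.285 to 1.14 ± 0.251 at day 4 and 1.03 ± 0.0386 at day 8.

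Most genes of a list on ZFP423 and the BMP pathway, with which it is known to act, fell. The list holds BMP ligands, receptors and SMADs and, outside that pathway, Parp1, Zfp467 and Ccn5. Of its 11 tested genes, 1 rose and 8 fell by day 4 and 2 rose and 9 fell by day 8 (81.8% and 100% called, median log2 fold change -0.55 and -0.92). Over all tested genes 58.2% and 67.7% were called. Bmp4, counted among those that fell on both days, passed the filter through its day 0 counts only. Bmp2 and Bmp7 had too few counts for a test. The receptor genes Bmpr1b (20.2 ± 2.93 to 0.932 ± 0.288 CPM, -4.43 ± 0.45), Bmpr2 (-0.92 ± 0.11) and Bmpr1a (-0.83 ± 0.13) fell by day 8, with adjusted p = 1.97e-05, 5.35e-05 and 0.000233. Parp1, which encodes a nuclear enzyme bound by ZFP423, rose by 0.75 ± 0.10 (adjusted p = 0.00012). Parp1 was the gene that rose at day 4, and Parp1 and Zfp467 were the 2 that rose by day 8, both outside the BMP pathway itself. Between days 8 and 4, 1 gene of the list was called, and 3 without day 4 replicate 2 and day 8 replicate 3.

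**Figure D3:**
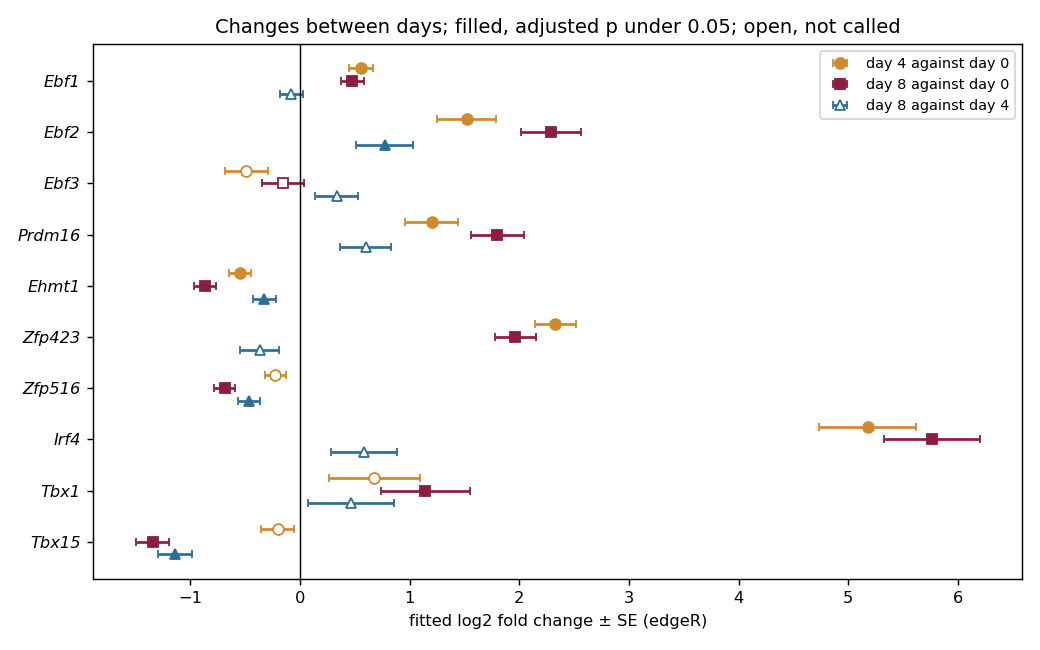
Fitted log2 fold change ± SE (edgeR, all 9 libraries) of the 10 regulators for day 4 against day 0, day 8 against day 0 and day 8 against day 4. Filled symbols were called at an adjusted p under 0.05 and open symbols were not. Irf4 lies at 5.18 and 5.76 against day 0, and Tbx15 at -1.34 for day 8 against day 0 beside -0.20 for day 4.

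Irf4 (ENSMUSG00000021356), an interferon regulatory factor known to bind PGC-1α in brown fat, had the largest fold changes of the 10 against day 0. It had 4, 6 and 3 counts at day 0, 205, 94 and 206 at day 4 and 214, 302 and 267 at day 8. The 13 counts of day 0 have a 95% exact Poisson interval of 6.92 to 22.2, which covers counting error only. Its level was 0.130 ± 0.0520 CPM at day 0, 4.79 ± 1.91 CPM at day 4 and 7.17 ± 1.08 CPM at day 8 (SD, n = 3). It rose 36.2-fold by day 4 (5.18 ± 0.44, adjusted p = 8.61e-06) and 54.3-fold by day 8 (5.76 ± 0.44, adjusted p = 3.59e-06). Because Irf4 passed the filter through the later days only, these tests are not given as support. Between days 4 and 8 the log2 fold change was 0.58 ± 0.30 (adjusted p = 0.167), and 0.28 without day 4 replicate 2 (adjusted p = 0.317). The lowest day 8 library exceeded the highest day 4 library by a narrow margin, 5.97 against 5.96 CPM. Unlike Ebf2 and Prdm16, it was not lowest in replicate 3 at day 8 (7.48 CPM, with 5.97 CPM in replicate 1).

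Irf4 is also a gene of immune cells, so their markers were read beside it. Of 7 macrophage markers tested, 0 were called higher by edgeR at either day and 3 were lower by day 8 (Cd14, Lyz2 and Csf1r). The share called was 14.3% at day 4 and 42.9% at day 8, beside 58.2% and 67.7% of all tested genes. Mrc1, the mannose receptor gene, stood at 4.24 CPM at day 0 and 13.5 CPM at day 4 without overlap of the groups (1.67 ± 0.71, adjusted p = 0.0674), and at 2.87 CPM at day 8. With both libraries that stood apart left out, Mrc1 was called higher at day 4 (1.73, adjusted p = 0.00868) beside 2 markers called lower, and 5 were lower at day 8. The part of macrophages in the Irf4 level was not tested. The 8 markers summed to 57.1 to 107.0 CPM at day 0, 57.1 to 78.2 CPM at day 4 and 19.1 to 51.5 CPM at day 8. The 5 B cell markers summed to at most 0.267 CPM in any library, and Pax5 had 0 counts throughout. Of 7 other interferon regulatory factor genes tested, Irf3 rose at both days (0.76 ± 0.11 and 0.67 ± 0.11, adjusted p = 0.000188 and 0.000309) and Irf9 fell at both (-1.29 ± 0.21 and -0.74 ± 0.21, adjusted p = 0.000523 and 0.00968). The others were not called against day 0. The share called in this family was 28.6% on both days, beside 58.2% and 67.7% of all tested genes. In the fit without those libraries, 5 of the 7 were called at day 4 and 4 at day 8.

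The start region of Irf4 is shown because Irf4 had the largest fold change of the 10 against day 0, in the direction of the gene (GRCm38.p6, RefSeq). Capitals mark TATAAA, the TATA box, 26 bases before the start.
Irf4, chr13:30748983-30749282, + strand: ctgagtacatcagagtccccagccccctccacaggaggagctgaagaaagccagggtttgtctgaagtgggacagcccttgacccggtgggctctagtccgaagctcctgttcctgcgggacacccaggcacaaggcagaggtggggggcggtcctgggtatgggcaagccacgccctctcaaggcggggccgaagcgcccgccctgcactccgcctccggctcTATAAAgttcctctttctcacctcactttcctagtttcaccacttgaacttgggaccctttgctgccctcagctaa
That hexamer, searched on both strands, was found in 13.6% of all start regions. Of the 7 regulators with a start region, Irf4 was the one that held it. The core of interferon regulatory factor sites, AANNGAAA on either strand, was found in 23.9% of all regions. It was absent from the Irf4 window and present in both windows of Ebf1.

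The 2 T-box genes of the set went in opposite directions. Tbx15 (ENSMUSG00000027868) had 70.2, 62.1 and 73.0 CPM at day 0, 50.7, 69.4 and 58.2 CPM at day 4 and 24.0, 24.6 and 32.4 CPM at day 8. Days 0 and 4 overlapped and day 8 lay below both. Day 4 replicate 2 and day 8 replicate 3 were the highest of their days. Tbx15 fell 2.54-fold by day 8 (-1.34 ± 0.15, adjusted p = 4.2e-05) and did so after day 4 (-1.14 ± 0.15, adjusted p = 0.000944). At day 4 the log2 fold change was -0.20 ± 0.15 (adjusted p = 0.270), and it was called at -0.32 when day 4 replicate 2 and day 8 replicate 3 were both left out (adjusted p = 0.0136).

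Tbx1 (ENSMUSG00000009097), a beige cell marker, was among the lowest counts of the set. It had 23, 22 and 27 counts at day 0, 61, 22 and 37 at day 4 and 62, 74 and 36 at day 8. Day 4 overlapped both other days, and day 8 lay above day 0. It rose 2.21-fold by day 8 (1.15 ± 0.41, adjusted p = 0.0295), a call that was lost without any one day 0 library and without day 8 replicate 1 or 2 (0.96 to 1.18, adjusted p = 0.0669 to 0.0983). At day 4 the log2 fold change was 0.68 ± 0.41 (adjusted p = 0.183), and it ran from 0.22 without day 4 replicate 1 (adjusted p = 0.671) to 0.99 without day 4 replicate 2 (adjusted p = 0.0384). The log2 ratio of Tbx15 to Tbx1 counts went from 6.59 ± 0.0711 at day 0 to 5.83 ± 1.00 at day 4 and 4.14 ± 0.751 at day 8. Of 7 other T-box genes tested, Eomes rose by both days (2.46 ± 0.36 and 2.44 ± 0.36, adjusted p = 0.000265 and 0.000201). No other was called at day 8, and Tbx2 was lower at day 4 (-1.01 ± 0.39, adjusted p = 0.0487). The share called in this family was 28.6% at day 4 and 14.3% at day 8, beside 58.2% and 67.7% of all tested genes. With both libraries that stood apart left out, Tbx2 was not called at day 4 (-0.70, adjusted p = 0.120), while Tbx5 was called lower at day 4 (-0.81, adjusted p = 0.00247) and day 8 (-1.10, adjusted p = 0.000278) and Tbx18 at day 4 (-0.87, adjusted p = 0.000185).

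Other known regulators of white or thermogenic fate split evenly. Of 21 tested, 7 rose and 9 fell by day 4 and 9 rose and 8 fell by day 8 (76.2% and 81% called, median log2 fold change -0.15 and -0.075). The shares over all tested genes were 58.2% and 67.7%. The lipid receptor gene Ppara rose from 0.954 ± 0.0625 to 181.7 ± 54.4 CPM at day 8 (7.57 ± 0.33, adjusted p = 2.06e-07). Zbtb16, a zinc finger gene known to respond to glucocorticoids, stood at 95.4 ± 10.5 CPM at day 4 and 39.3 ± 14.1 CPM at day 8, from 0.362 ± 0.0841 CPM. The retinoblastoma gene Rb1 rose by 2.35 ± 0.15 (adjusted p = 1.62e-06) and the homeobox gene Hlx, a known driver of beige genes, by 3.25 ± 0.25 (adjusted p = 3.45e-06), both at day 8. Among the 8 that fell by day 8, Foxp1 went from 67.6 ± 5.88 to 16.9 ± 1.31 CPM (adjusted p = 3.64e-06). Mrtfa (-1.73 ± 0.14, adjusted p = 5.30e-06) and Twist1 (-1.31 ± 0.17, adjusted p = 9.69e-05) were lower too. So were Gata2 (-3.77 ± 0.57, adjusted p = 0.000256) and Foxc2 (-2.46 ± 0.42, adjusted p = 0.000532).

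Thermogenic genes on which these regulators are known to act were higher throughout the tested set. Of 12 listed, 11 could be tested and all 11 rose by both days, with medians of 5.87 and 7.89, and 8 rose further after day 4. Among the 11, Cox8b, Cpt1b and Otop1 passed the filter through the later days only. Elovl3, a fatty acid elongase, had the smallest adjusted p at day 8 (7.89 ± 0.24, 6.13e-08), and Cpt1b, which admits fatty acids to mitochondria, had 3, 4 and 4 counts at day 0 and reached 15.6 ± 3.07 CPM at day 8. Dio2, which activates thyroid hormone, had too few counts for a test. Published depot markers did not move as a group: of 17 tested, 5 rose and 7 fell by day 8 (median -0.44). At 70.6%, the share called was close to the 67.7% of all tested genes. Among beige markers Cited1, with 0, 1 and 0 counts at day 0, reached 3.05 ± 0.500 CPM at day 8 and passed the filter through the later days only. The beige markers Slc27a1 and Tnfrsf9 rose by 3.75 ± 0.30 and 1.92 ± 0.24. Klhl13 (-1.47 ± 0.20) and Sp100 (-0.92 ± 0.19) fell, with adjusted p = 0.000108 and 0.00166, while Tmem26 stood at -0.74 ± 0.56 (adjusted p = 0.262). The white fat markers Retn and Agt rose by 8.03 ± 0.53 and 4.35 ± 0.39, while Hoxc8 (-0.48 ± 0.12) and Hoxc9 (-1.13 ± 0.15) fell and Dpt stood at -0.51 ± 0.44 (adjusted p = 0.330). The other depot markers called lower at day 8 were Eva1a (-3.10 ± 0.89), Shox2 (-1.02 ± 0.12) and Hspb7 (-0.44 ± 0.16). Eva1a passed the filter through its day 0 counts only, so its test is not given as support. Ear2, Lhx8 and Epsti1 were not called at day 8, and Zic1, Tcf21 and Lep had too few counts for a test. Of 10 skeletal muscle genes, which PRDM16 and EHMT1 are known to repress in precursors, 3 could be tested. Des rose by 1.67 ± 0.30 (adjusted p = 0.000795), Acta1 fell from 49.5 to 6.99 CPM (-2.82 ± 0.33, adjusted p = 4.54e-05) and Mylpf stood at -0.014 ± 0.49. Myod1, Myf5 and Pax7 had 0 counts in all libraries.

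**Figure D4:**
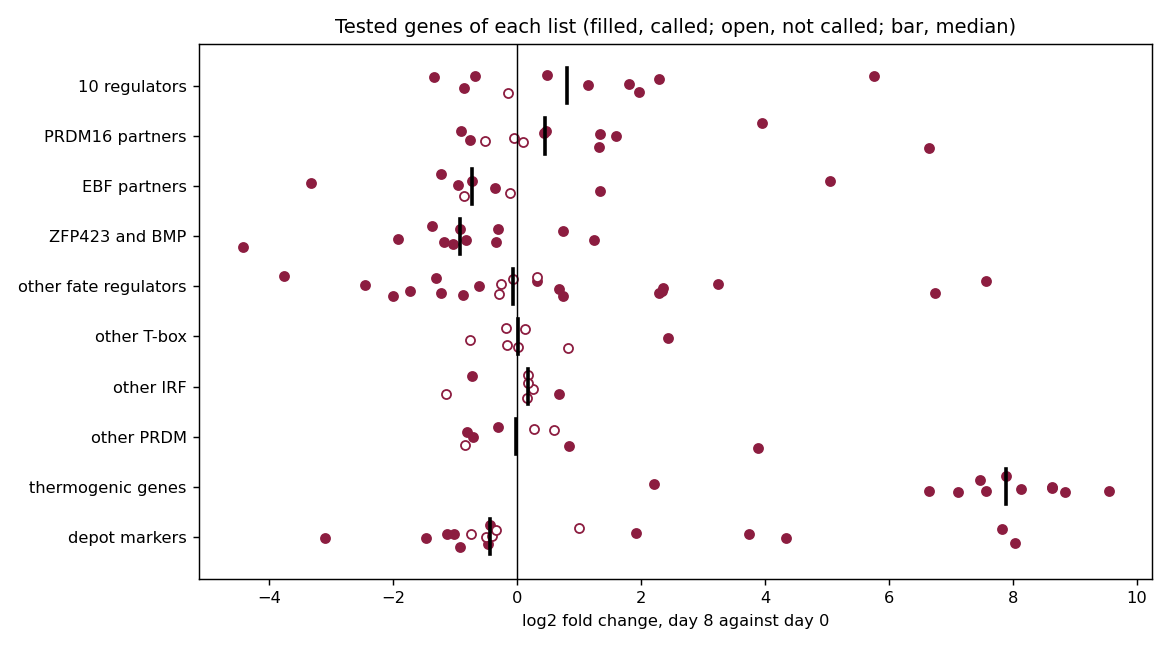
Fitted log2 fold change for day 8 against day 0 (horizontal axis) of every tested gene in the set of 10 regulators and 9 related lists (rows, points spread vertically for display). Filled points were called, open points were not, and black bars mark medians. The 10 regulators have a median of 0.81, PRDM16 partners 0.45, ZFP423 and BMP genes -0.92 and thermogenic genes 7.89.

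Over the 9 libraries, Ebf2 and Prdm16 had the highest correlation of any pair among the 10 (Pearson r of log2 CPM 0.97), followed by Irf4 and Zfp423 (0.96). Ehmt1 ran opposite to Irf4 and Ebf2 (-0.95 and -0.94), and for Ebf3 the value largest in size was -0.515, with Zfp423. These values describe 9 libraries that fall into 3 days, so 2 genes that differ between days in the same order correlate highly. Likeness was measured against 10688 tested genes whose counts averaged 100 or more per library. The profile closest to Ebf2 was that of Arel1 (r = 0.998), then Clpb and Tubg1 (both 0.996). Smug1, Mef2d and Pitpnm1 came closest to Prdm16 (0.994, 0.993 and 0.992), and Pyurf, Ddt and Aoc3 to Irf4 (0.998, 0.997 and 0.997). Closest to Zfp423 were Pop5, Uqcrh and Ndrg2 (0.995 each).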

How the data were processed

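Ribosome footprints were counted in 9 libraries of cultured mouse iWAT preadipocytes, 3 per day. The deposited values are raw counts per Ensembl gene, not normalised by the authors. Per the submitters' processing notes, cutadapt, HISAT2 and featureCounts were used with GRCm39. The sources used here give no versions, strandedness or treatment of reads that fit several genes.

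Genes were filtered with filterByExpr (minimum count 10), scaled with TMM and tested with edgeR 4.0.16 (R 4.3.3) in 1 fit of all 9 libraries with group as the only term. Standard errors were derived from the quasi-likelihood F statistic. CPM use TMM-scaled library sizes. Alternatives changed the scaling, filter, test (DESeq2 1.42.0, limma-voom 3.58.1), libraries and replicate block. The fit was tested on simulated data with 100 changed genes of each size per comparison. Of 4-fold changes 91% to 97% were called. Of 2-fold changes 67% were called for day 8 against day 0, 66% for day 4 against day 0 and 57% for day 8 against day 4. Unchanged genes made up 4.65% to 6.55% of calls. No coding lengths were given, so planned levels per coding length were left out and levels of different genes are not compared. The regulators and 17 related lists were chosen with earlier results of these data known. All 10 regulators are named, and from each list up to 4 genes with the smallest adjusted p at day 8 lead. Other list members were added after their values were seen.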

Additional observations from a re-analysis of the deposited data

How the results depend on the processing

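Across 19 alternative settings, 18 of the 30 differences of the 10 regulators kept their direction and their side of the threshold. Of 570 values, 523 did so, 24 lost a call, 20 gained one and 3 changed sign. The sign changes were all in differences that were not called: Ebf3 at day 8 against day 0 was 0.061 without day 8 replicate 3 and 0.052 when day 4 replicate 2 was left out too, and Ebf1 at day 8 against day 4 was 0.066 with libraries scaled by totals. For day 8 against day 4 the regulators called numbered 2 when only the groups compared were fitted. Leaving out single libraries gave 2 to 5 regulators, while all genes called ranged from 2706 (without day 8 replicate 1) to 4899, with 2760 without day 8 replicate 2.

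With the replicate number as a block, 8290, 9722 and 4079 genes were called for day 4 against day 0, day 8 against day 0 and day 8 against day 4, and 6, 9 and 2 regulators. Ebf2 (0.81, adjusted p = 0.0539) and Ehmt1 (-0.32, adjusted p = 0.0542) were not called there by edgeR between days 8 and 4. The numbers share no stated origin. Deviations of same-numbered libraries correlated at -0.2 to 0.188, over 0.1 in 2 of 9 pairs, and 5 of 9 libraries were closest to one of their own number. Differently numbered pairs correlated at -0.296 to 0.314, with the highest value between day 4 replicate 2 and day 8 replicate 3. Of 969 counts of called genes in the related lists, 831 stayed within 1.5 times the value with all libraries and TMM. Low counts limit Irf4 at day 0, Tbx1 and Prdm16os, among others.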
